A study of Mus musculus with 6 samples.

Results

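The peaks described here were those at which the zinc finger domain of KLF3 alone gave a high signal. They were selected on their DBD height, with a limit of 7.5 or more in the authors' table of every peak called, and 1398 of 22188 peaks (6.3%) met this rule. A height is the log2 number of sequenced tags in the 400 bp of a peak, counted by the authors in both replicates of a construct together and scaled to 100 M tags. All heights and G+C contents below refer to these 400 bp windows, and the peaks above the limit are called DBD-high peaks.

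The heights came from chromatin immunoprecipitation (ChIP) against the V5 tag in murine embryonic fibroblasts (MEFs) of Klf3-/- genotype and C57BL/6 background. The cells were rescued by retrovirus with 1 of 3 V5-tagged constructs and kept under puromycin selection. KLF3 is the full-length protein, ΔDL carries AS in place of DL in the motif that contacts the corepressor CtBP, and DBD keeps only the zinc fingers and a putative nuclear localization signal. There were 2 ChIP replicates of each construct, each with a paired input. All groups shared the knockout background, and each construct was expressed in a single stable clone, so that construct and clone cannot be told apart. Expression was not measured in the files used here, so the fibroblast identity was not checked against marker genes.

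KLF3 belongs to the Krüppel-like factors, transcription factors with zinc fingers at the C-terminus that contact CACCC boxes and related GC-rich elements in promoters and enhancers. It acts mainly as a repressor, and its N-terminal part recruits CtBP, which brings histone-modifying enzymes to the DNA. In mice KLF3 is known for roles in fat tissue, red blood cells and B cells. Sites where the DBD construct is recovered are of interest because this construct lacks the rest of the protein.

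The sequences of the central 100 bp of several DBD-high peaks are given first, to show peaks with and without a match to a known element. They are from mm9, plus strand, 5′ to 3′. Capitals mark a match on either strand to the 8-letter KLF consensus (CCACACCC, CCACGCCC, CCCCACCC or CCCCGCCC) or to CCNNNAGNNGGC, a shortened form of the sequence bound by the insulator protein CTCF. The first 5 are among the 10 highest DBD peaks, the next 2 are the promoters of Mcart1 and Cfl1, and the eighth is another of the 10 highest. The last 3 are the peaks nearest to the median DBD height and G+C content. Of the 10 highest, 5 held a match in the central 100 bp and 5 held none.
Grin1 intron 19, chr2:25148514-25148613: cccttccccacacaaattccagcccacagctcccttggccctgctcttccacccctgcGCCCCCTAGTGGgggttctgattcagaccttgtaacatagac
Prph intron 3, chr15:98886920-98887019: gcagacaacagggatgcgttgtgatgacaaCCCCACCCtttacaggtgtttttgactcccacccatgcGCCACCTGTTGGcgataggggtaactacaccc
32.8 kb upstream of Grap, chr11:61433945-61434044: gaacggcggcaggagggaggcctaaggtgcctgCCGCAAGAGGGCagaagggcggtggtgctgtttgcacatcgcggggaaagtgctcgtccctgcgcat
10.3 kb upstream of Klhdc8a, chr1:134184806-134184905: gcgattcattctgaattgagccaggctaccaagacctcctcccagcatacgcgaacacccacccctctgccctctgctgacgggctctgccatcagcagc
1.25 kb upstream of S100a14, chr3:90329471-90329570: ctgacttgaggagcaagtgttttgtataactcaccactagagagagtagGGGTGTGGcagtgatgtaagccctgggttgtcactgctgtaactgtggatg
Mcart1 promoter, chr4:45421799-45421898: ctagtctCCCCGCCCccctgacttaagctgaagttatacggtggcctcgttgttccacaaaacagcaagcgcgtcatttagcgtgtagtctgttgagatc
Cfl1 promoter, chr19:5490414-5490513: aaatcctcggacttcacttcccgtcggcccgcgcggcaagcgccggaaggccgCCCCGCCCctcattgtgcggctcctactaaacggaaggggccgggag
Rapgef6 intron 4, chr11:54436087-54436186: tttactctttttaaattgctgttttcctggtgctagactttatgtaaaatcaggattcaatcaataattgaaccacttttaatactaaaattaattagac
279.7 kb from the start site of Gm2516, chr8:51733114-51733213: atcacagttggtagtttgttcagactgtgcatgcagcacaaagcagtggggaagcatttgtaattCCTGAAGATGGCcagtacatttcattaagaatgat
Casp8ap2 intron 1, chr4:32706637-32706736: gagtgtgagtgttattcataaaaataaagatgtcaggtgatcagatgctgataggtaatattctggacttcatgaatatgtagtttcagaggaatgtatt
324 kb from the start site of Gm9871, chr6:102048119-102048218: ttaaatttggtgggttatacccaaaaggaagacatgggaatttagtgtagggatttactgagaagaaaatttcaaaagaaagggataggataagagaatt

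A consensus match stood in the Prph, S100a14, Mcart1 and Cfl1 sequences, and a CTCF match in those of Grin1, Prph, Grap and Gm2516. The printed peaks were chosen for show after their letters were known. The Klhdc8a window held neither. The Rapgef6, Casp8ap2 and Gm9871 windows also held neither, and their G+C contents over the printed 100 bp were 26%, 33% and 33%, against 59% at Grin1 and 69% at Cfl1.

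The distribution of DBD heights over all peaks had a median of 6.19. The 1398 DBD-high peaks had a median of 7.73 (quartiles 7.59 and 7.94) and reached 10.17. Most lay close to the limit, with 1097 between 7.5 and 8, 252 between 8 and 8.5 and 49 at 8.5 or above. The 3 peaks just inside the limit, all at 7.5, were in intron 24 of Tpp2 (nearest start site A530098C11Rik), 16.5 kb upstream of Cep350 and 153 kb from the start site of Mettl11b. The 3 just outside, all at 7.49, were in the promoters of 1200016B10Rik and Lpgat1 and 51.3 kb upstream of Atf3. A height of 7.5 corresponds to 29 tags of the 16.2 M DBD tags of both replicates, for which counting error alone gives a 95% interval from 6.91 to 8.01 (exact Poisson), so peaks on either side of the limit were not separable at this depth.

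**Figure D1:**
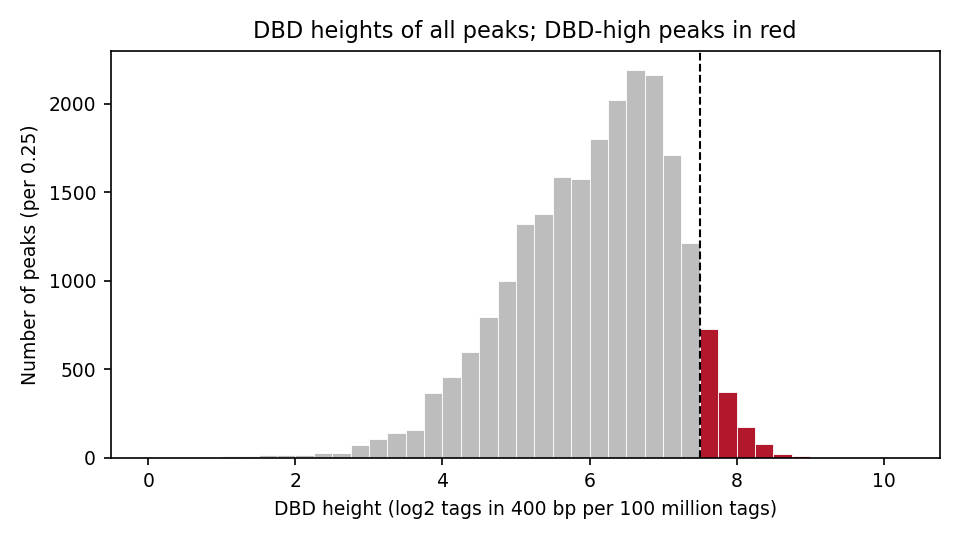
Histogram of the DBD height of all 22188 peaks, in steps of 0.25 on the log2 scale (x axis), with the number of peaks in each step (y axis). The dashed line is the limit of 7.5, and the 1398 peaks at or above it, drawn in red, form the right-hand tail of the distribution.

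The number of tags behind the scores differed between the libraries. The scores of the replicate peak lists are whole multiples of what 1 tag is worth, so the total behind each list could be read from them, with 5.46 and 18.1 M tags behind KLF3 replicates 1 and 2. The ΔDL lists rested on 1.77 and 10.2 M tags and the DBD lists on 7.81 and 8.38 M. The smallest called peak held between 4 tags (ΔDL replicate 1) and 13 tags (KLF3 replicate 2). ΔDL replicate 1 and KLF3 replicate 2 were therefore the extremes of the 6 libraries. These totals are not the mapped reads: the study lists more mapped reads for every library, with a narrower range, and why the totals behind the scores are smaller was not tested. Levels below are given with either total where it matters. Intervals given below cover counting error only, and since no source used here states that replicates came from separate cultures, the spread between them may be technical.

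Of the DBD-high peaks, 1109 (79.3%, beside 10.5% of all peaks) were on the merged lists of all 3 constructs. They made up 47.5% of the 2334 peaks listed for all 3. A further 184 (13.2%, beside 9.46% of all peaks) were listed for ΔDL and DBD. DBD alone had 41 (2.93%, beside 2.09%), and KLF3 and DBD had 7 (0.501%, beside 0.266%). The remaining 57 were not on the DBD merged list. Of these 26 were listed for KLF3 and ΔDL, 22 for KLF3 alone and 9 for ΔDL alone. Of all peaks 10.4%, 42.4% and 24.8% were listed in these 3 ways. Being listed for DBD follows in part from the selection. The merged lists hold peaks found in both replicates, and for 51 of these 57 only 1 DBD replicate list overlapped the peak.

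The heights in the KLF3 and ΔDL libraries, which did not enter the selection, were ordered in nearly the same way throughout the set. The median KLF3 height was 7.27 (quartiles 7.02 and 7.53, range 6.11 to 10.78). The median ΔDL height was 8.34 (quartiles 8.10 and 8.60, range 6.27 to 11.17). Over all 22188 peaks the medians were 7.35 for KLF3 and 7.52 for ΔDL. The DBD-high peaks thus had KLF3 heights near the middle of all peaks and ΔDL heights in the upper part.

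ΔDL was above KLF3 at 1365 of the 1398 peaks (97.6%), beside 58.4% of all peaks. The order ΔDL, then DBD, then KLF3, in which the place of DBD uses the height that chose the peaks, was found at 1251 (89.5%), beside 39.4% of all peaks. DBD had the highest of the 3 values at 39 peaks (2.79%, beside 1.25% of all peaks), and KLF3 at 21 (1.5%, beside 41.3%). Both counts also use the height that chose the peaks. The difference ΔDL minus KLF3 had a median of 1.07 and an SD over peaks of 0.37, compared with a median of 0.42 and an SD of 1.05 over all peaks. The 3614 peaks on the DBD merged list that fell below the limit had a median difference of 1.05, close to that of the DBD-high peaks. The 1608 peaks with a KLF3 height of 9 or more that were not DBD-high (tall KLF3 peaks) had a median of -0.70. Their choice by KLF3 height by itself tends to lower this difference.

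**Figure D2:**
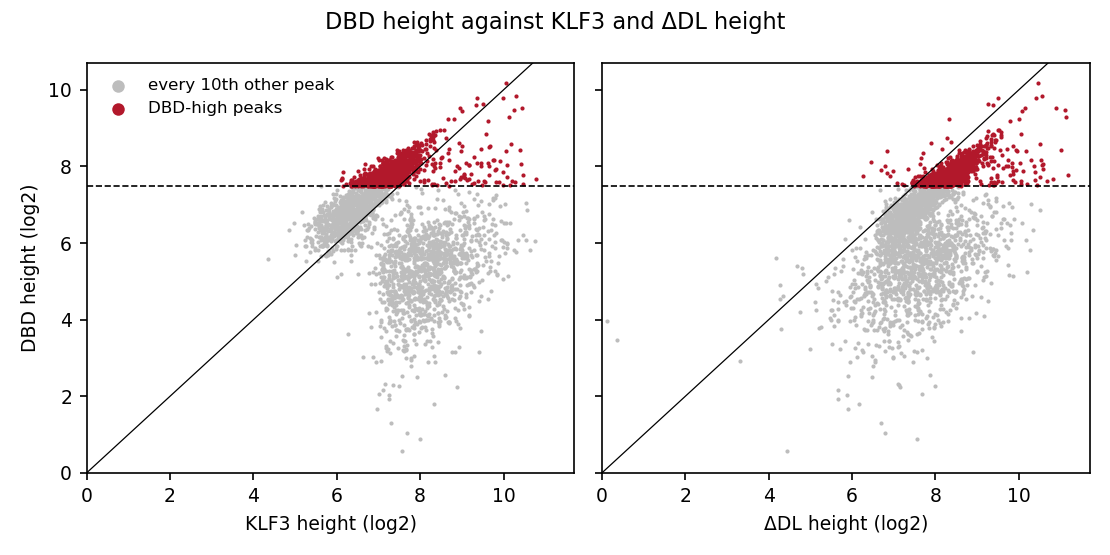
DBD height (y axes) against KLF3 height (left) and ΔDL height (right), all on the log2 scale, with 1 point for each of the 1398 DBD-high peaks (red) and for every 10th other peak (grey). The dashed line is the limit of 7.5 and the solid line marks equal heights. Most red points lie above the line for KLF3 (1291 of 1398, or 92.3%, beside 40.7% of all peaks). For ΔDL most lie below it (1356 of 1398, or 97%), as do 98% of all peaks. Both counts use the DBD height that chose the peaks.

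A ΔDL height at least 2-fold above that of KLF3 was found at 883 DBD-high peaks (63.2%), beside 28.9% of all peaks. A ΔDL height at least 2-fold below KLF3 was found at 1 DBD-high peak, 12.4 kb upstream of Ifngr2, which encodes a chain of the interferon gamma receptor, beside 14.9% of all peaks. These counts depended on how the constructs were scaled to each other. Over the 2334 peaks listed for all 3 constructs the median of ΔDL minus KLF3 was 1.03, and when the heights were shifted so that these medians were equal, the DBD-high median became 0.04. After this scaling 1 DBD-high peak (0.0715%) was at least 2-fold higher in ΔDL, beside 0.464% of all peaks. At least 2-fold lower were 35 (2.5%), beside 42.3% of all peaks. Since DBD-high peaks made up 47.5% of the peaks used for the scaling, a median close to 0 follows in part from its construction.

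DBD minus KLF3, which rests on the height used for the selection, had a median of 0.52 and is given as a description. A DBD height at least 2-fold above KLF3 was found at 67 DBD-high peaks (4.79%), beside 3.27% of all peaks. It was at least 2-fold below KLF3 at 53 (3.79%), beside 52.6% of all peaks. Over the shared peaks DBD minus KLF3 had a median of 0.41. With that scaling 4 DBD-high peaks (0.286%) were at least 2-fold higher, beside 0.437% of all peaks. At least 2-fold lower were 65 (4.65%), beside 53.7% of all peaks.

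The replicate lists, each called by the authors on 1 ChIP library against its input, overlapped most of the DBD-high peaks by at least 1 bp. KLF3 replicate 1 overlapped 1340 (95.9%) and replicate 2 overlapped 1194 (85.4%). ΔDL replicates 1 and 2 overlapped 1346 (96.3%) and 1367 (97.8%), and DBD replicates 1 and 2 overlapped 1367 (97.8%) and 1374 (98.3%). Both KLF3 lists overlapped 1169 DBD-high peaks (83.6%), beside 64.1% of all peaks, and both ΔDL lists 1331 (95.2%), beside 55.9%. For DBD, whose reads chose the peaks, it was 1345 (96.2%), beside 22.4% of all peaks. All 6 lists overlapped 1114 DBD-high peaks (79.7%) and 10.6% of all peaks.

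The share of DBD-high peaks overlapped was 90.6% ± 7.38 (SD, n = 2) for the KLF3 lists and 97% ± 1.06 (SD, n = 2) for the ΔDL lists, and did not pass a two-sided exact permutation test (p = 0.333). This is the smallest p that 2 against 2 lists allow. The median rank of the DBD-high peaks within a list, by score, was at percentile 77.6 in KLF3 replicate 1 and 51.7 in replicate 2. In ΔDL it was at 94.6 and 91.7, with p = 0.333 by the two-sided exact permutation test. The lists held 26772 and 23872 peaks for KLF3 and 17206 and 32624 for ΔDL, so these ranks are not on a common scale and are given as positions within each list. The DBD-listed peaks below the limit were overlapped less by KLF3 replicate 2 (39.7%) than by the other 5 lists (78.4% to 100.0%). The tall KLF3 peaks were overlapped at 51.9% and 92.5% by the ΔDL lists, while their high overlap with the KLF3 lists and low overlap with the DBD lists follow from how they were chosen.

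**Figure D3:**
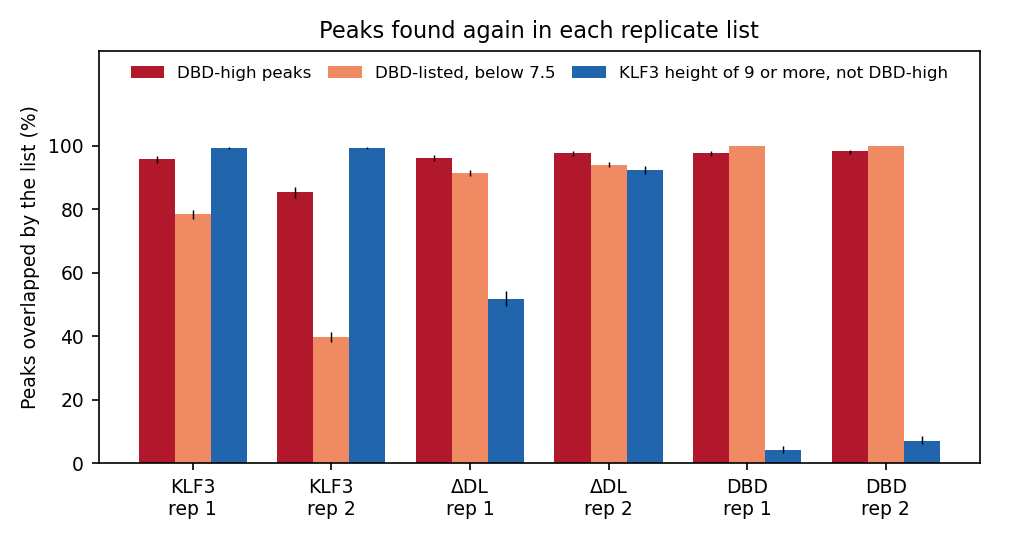
Percent of peaks (y axis) overlapped by each of the 6 replicate lists (x axis) for the DBD-high peaks (red), the DBD-listed peaks below 7.5 (orange) and the tall KLF3 peaks that are not DBD-high (blue). Error bars are 95% Wilson intervals over peaks. The red bars stand between 85.4% and 98.3% in all lists, and the blue bars stand at 51.9% and 92.5% in the ΔDL lists. The red and orange bars for DBD and the blue bars for KLF3 and DBD are set by how the groups were chosen.

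At the 1114 DBD-high peaks found in all 6 lists, the number of tags per called peak was similar across the lists, although the totals behind the scores were not. The median was 14 tags in KLF3 replicate 1, 21 in KLF3 replicate 2, 14 in ΔDL replicate 1, 25 in ΔDL replicate 2, and 18 and 17 in the DBD replicates. Scaled to 100 M tags the KLF3 medians became 256 and 116, those of ΔDL 793 and 244, and those of DBD 230.4 and 203. The library with the fewest tags behind its scores, ΔDL replicate 1, gave the highest scaled level and the one with the most, KLF3 replicate 2, the lowest. KLF3 replicate 1 lay above ΔDL replicate 2, so the replicates of the constructs overlapped. On the log2 scale the means were 7.43 (SD 0.81, n = 2) for KLF3 and 8.78 (SD 1.20, n = 2) for ΔDL, a difference of 1.35 with p = 0.667 by a two-sided exact permutation test. Taken by the number in the list names, ΔDL minus KLF3 was 1.63 for the first replicates and 1.07 for the second.

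The levels depended on the total used. With the mapped reads of each library in place of the tags behind the scores, the same tags came to 34.7 and 44.7 per 100 M for KLF3 and to 69.3 and 70.3 per 100 M for ΔDL. Both ΔDL values then lay above both KLF3 values. The log2 difference was 0.83, with p = 0.333 by the two-sided exact permutation test, the smallest that 2 against 2 allow. At the 1140 DBD-high peaks in all 4 KLF3 and ΔDL lists, the median ΔDL minus KLF3 from tags in called peaks was 1.12 with the tags behind the scores and 0.80 with the mapped reads.

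With the tags behind the scores it was 0.31 without KLF3 replicate 2, 1.51 without KLF3 replicate 1, 0.69 without ΔDL replicate 1 and 2.45 without ΔDL replicate 2. Without both KLF3 replicate 2 and ΔDL replicate 1 it was -0.10. With the mapped reads it was between 0.67 (without KLF3 replicate 1) and 0.98 (without KLF3 replicate 2), and 0.99 without KLF3 replicate 2 and ΔDL replicate 1. The sign turned with the first total when both libraries were left out, and in none of these settings with the second, a total that was chosen after seeing the data. Which total fits the lists better was not tested.

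Choosing peaks by a high KLF3 height, here and below, by itself tends to lower ΔDL minus KLF3. The scaled levels of the tall KLF3 peaks spanned a smaller range with the tags behind the scores. At the 801 of them that the KLF3 and ΔDL lists shared, the KLF3 medians were 586 and 426 and the ΔDL medians 453 and 342 (difference -0.34 on the log2 scale, exact permutation p = 0.667), and with the mapped reads the difference was -0.87 (exact permutation p = 0.667). The 46 DBD-high peaks that were in all 6 lists and had a KLF3 height of 9 or more had medians of 943 and 569.6 for KLF3 and 849.6 and 649.8 for ΔDL. Their difference was 0.02 on the log2 scale (exact permutation p = 1).

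**Figure D4:**
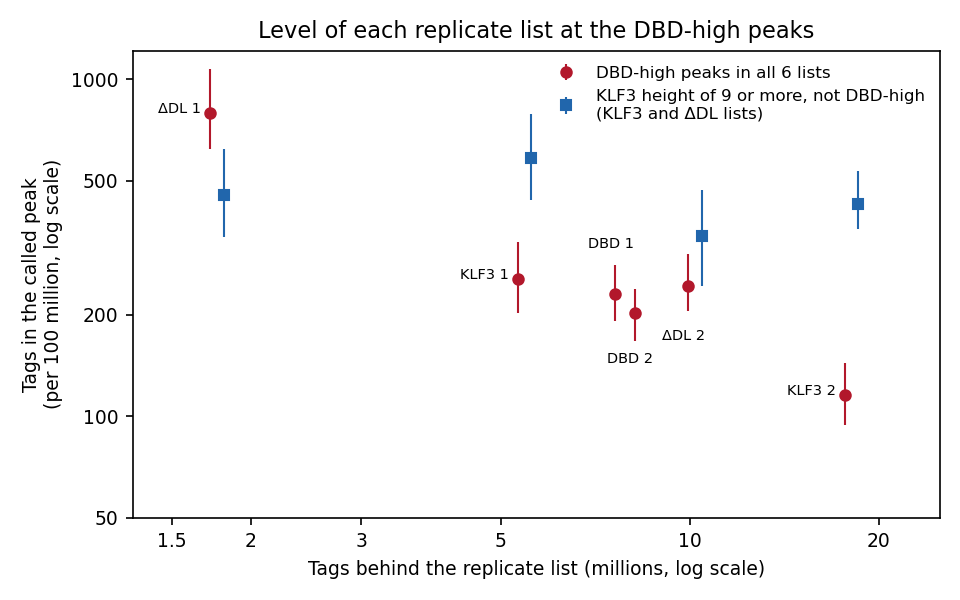
Median level in the called peak, as tags per 100 M (y axis, log scale), against the tags behind each replicate list (x axis, M tags, log scale), with bars from the first to the third quartile over peaks. Red circles are the 1114 DBD-high peaks in all 6 lists, which run from 793 in ΔDL replicate 1 to 116 in KLF3 replicate 2, and blue squares are 801 tall KLF3 peaks in the KLF3 and ΔDL lists, which run from 342 to 586. The circles and squares are shifted slightly left and right of the true total so that they do not cover each other.

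By an estimate from the heights, the tags at DBD-high peaks lay mostly within the called peak. The called peaks are between 123 and 143 bp wide (medians of the 6 lists), and the tags inside them can be set against those in the 400 bp window. At DBD-high peaks in both KLF3 lists the called peak held a median of 94.1% of the 400 bp tags, compared with 67.9% over all peaks and 65% at the tall KLF3 peaks. For ΔDL the values were 97.7%, 90.7% and 63.5%. The DBD-high peaks with a KLF3 height of 9 or more had 79.4% for KLF3 and 70.7% for ΔDL, between the other groups. The DBD-listed peaks below the limit resembled the DBD-high ones, with 93.6% for KLF3 and 96.1% for ΔDL. In the DBD lists the DBD-high peaks (95.5%) were close to all peaks (96.3%). The 400 bp tags were computed back from the heights with the totals behind the scores. The ratio passed 100% at some peaks, with an upper quartile at DBD-high peaks of 104% for KLF3 and 108% for ΔDL. It is therefore an estimate and not a measured share, and why it passes 100% was not tested.

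DBD-high peaks were mostly far from genes' starts. Of the 1398, 830 (59.4%) were intergenic and 478 (34.2%) intronic, while 37 (2.65%, 95% Wilson interval 1.93 to 3.63) were in promoters. Over all peaks the shares were 43.7%, 32.8% and 20.1%, and of the tall KLF3 peaks 53.1% were in promoters. The other DBD-high peaks were in exons (21), at transcript ends (20), and in 3′ UTRs (10) and 5′ UTRs (2). The median distance to the nearest start site was 67.8 kb, compared with 24.4 kb over all peaks and 0.359 kb at the tall KLF3 peaks. Of the DBD-high peaks 597 (42.7%) lay more than 100 kb away, and 25.4% of all peaks did.

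Among the intronic peaks 133 of 478 (27.8%) were in the first intron, compared with 36.7% of the intronic peaks in the whole table. Of the DBD-high peaks 33 (2.36%) had another DBD-high peak within 10 kb. Over all peaks, with any other peak counted, it was 29.5%, and a smaller set has fewer close neighbours by its size alone. The X chromosome held 93 DBD-high peaks (6.65%) and 3.91% of all peaks. The DBD-listed peaks below the limit resembled the DBD-high ones here, with 0.968% in promoters, a median distance of 80.2 kb and 6.2% on X.

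The DNA at DBD-high peaks was AT-rich, with a median G+C content of 37.4% (quartiles 32.9% and 42.1%) compared with 44.9% over all peaks and 60.3% at the tall KLF3 peaks. The G+C content also fell towards the centre. It averaged 35.6% in the central 100 bp and 40.6% at 1.7 to 2 kb, and was lower at the centre than in the flanks at 1017 peaks (72.7%). Over all peaks the centre (46.8%) was above the flanks (43.2%) on average, and it was lower than the flanks at 44.7% of them. The DBD-listed peaks below the limit had 34.9% at the centre and 40.5% in the flanks.

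**Figure D5:**
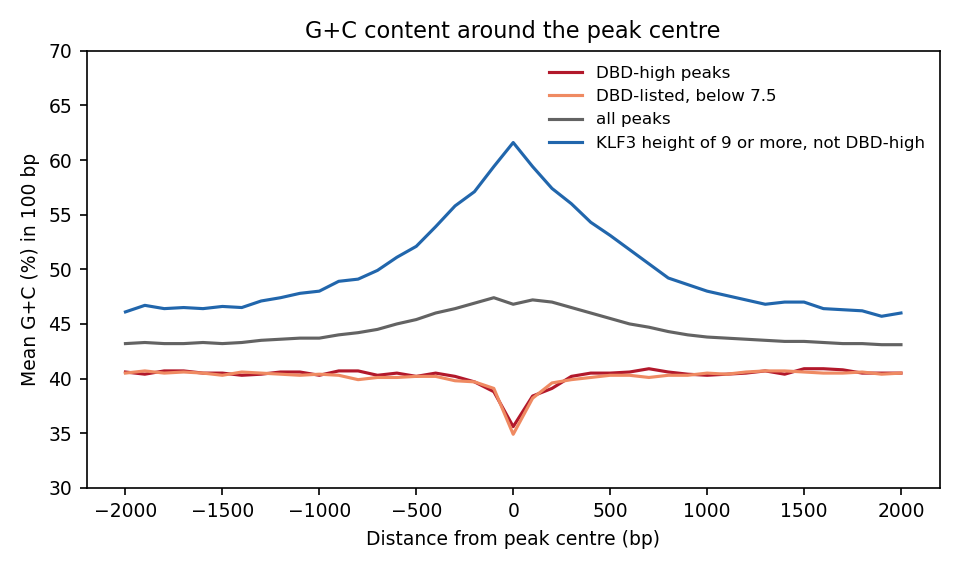
Mean G+C content of mm9 in 100 bp steps (y axis, percent) by distance from the peak centre (x axis, bp) for the DBD-high peaks, the DBD-listed peaks below 7.5, all peaks and the tall KLF3 peaks that are not DBD-high. The first 2 groups have a dip at the centre, to 35.6% and 34.9%, where the tall KLF3 peaks rise to 61.6%.

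The share of peaks that were DBD-high fell from 15.7% of the 1139 peaks with a G+C content under 30% to 0.446% of the 4037 peaks at 60% or more. Over all peaks ΔDL minus KLF3 ran with G+C in the same order, from a median of 1.17 below 30% to -0.95 at 60% or more. Within the DBD-high peaks it was 1.17 below 30% and 0.85 between 50% and 60%, and -0.12 at the 18 peaks above. AATT was present in 60.8% of the central windows of DBD-high peaks and 46.3% of their edges, and CAGG in 44.9% and 56.8%, words that were chosen after their values were seen.

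Vertebrate conservation, the mean PhastCons score, had a median of 0.03 at DBD-high peaks, 0.08 over all peaks and 0.21 at the tall KLF3 peaks. The authors' annotation placed 334 DBD-high peaks (23.9%) in repeats, compared with 17.2% of all peaks. They were mainly LINE (145), LTR (65), SINE (49) and DNA (24) elements. In rRNA repeats, 8 of 12 peaks were DBD-high. A CpG island annotation was given to 6 DBD-high peaks (0.429%) and 2.86% of all peaks. The DBD-listed peaks below the limit shared these traits. Their median conservation was 0.03, with 26.5% in repeats and 0.0277% in CpG islands.

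The KLF consensus was infrequent at DBD-high peaks. An 8-letter match within the central 100 bp was found at 63 of them (4.51%, 95% Wilson interval 3.54 to 5.72), and in 2.18% of flanking windows of the same length. Over all peaks it was found at 20%, with 4.24% in the flanks, and at 51.3% of the tall KLF3 peaks. In both sets the share varied with G+C content. From 35% to 40% G+C the match was at 2.84% of DBD-high peaks and 3.23% of all peaks, and from 50% to 60% at 24.6% and 33.3%. At 60% or more it was at 22.2% of the 18 DBD-high peaks and 50.1% of all peaks. The 6-letter core (the last 6 letters of each of the 4 forms) was at 10.2% of DBD-high peaks and in 10.1% of their flanks, beside 40.2% and 16.8% over all peaks. The DBD-listed peaks below the limit had the consensus at 2.27%, with 2.02% in the flanks.

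Sequences of other factors were counted in the central 200 bp, on both strands. The AP-1 element (TGACTCA or its complement TGAGTCA), bound by FOS and JUN proteins, was at 3.15% of DBD-high peaks and in 3.18% of their flanks, beside 12.3% of all peaks. The TEAD element (GGAATG) was at 9.3% beside 13.5%, and the RUNX element (TGTGGTT) at 3.65% beside 6.13%. The ETS element (CCGGAAG) was at 0.715% beside 4.44%. The CCAAT box (CCAATCA, or the same word ending in CG, GA or GG in place of CA) was at 7.87% beside 9.21%, and the CTCF form at 2.58% beside 5.07%. A match is a run of letters and not a site shown to be bound.

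The 63 DBD-high peaks with a consensus match had a median KLF3 height of 8.97, a ΔDL height of 9.32 and a DBD height of 7.97. ΔDL minus KLF3 was 0.44 and DBD minus KLF3 was -0.80. Their median G+C content was 47.4%, and the centre was below the flanks at 28.6% of them. In the 1335 without a match the KLF3, ΔDL and DBD medians were 7.25, 8.33 and 7.73, with 1.08 for ΔDL minus KLF3 and a G+C content of 36.9%.

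A small group of 60 DBD-high peaks (4.29%) also had a KLF3 height of 9 or more. Their median KLF3, ΔDL and DBD heights were 9.64, 9.86 and 8.04. Promoters held 18 of them (30%), the median G+C content was 51.2%, and 31 (51.7%) had a consensus match. ΔDL minus KLF3 had a median of 0.26, and -0.70 at the tall KLF3 peaks outside the set. Both groups were chosen by KLF3 height, which by itself tends to lower this difference. The ΔDL median of the other tall KLF3 peaks was 8.73. Their DBD heights are lower by the way the groups were formed. The other 1338 DBD-high peaks had medians of 7.25, 8.33 and 7.72, and 1.42% were in promoters.

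The same features changed along the DBD height. From 7.5 to 8, from 8 to 8.5 and from 8.5, the median KLF3 height was 7.18, 7.64 and 8.35. Promoters held 2.01%, 4.37% and 8.16% of the peaks. ΔDL minus KLF3 stayed at 1.07, 1.10 and 0.95. At the 49 peaks from 8.5 a consensus match was present in 8 (16.3%) and a CTCF match in 5 (10.2%) of the central 100 bp, although these shares rest on few peaks.

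The highest DBD height, 10.17, was in intron 19 of Grin1, which encodes a subunit of the NMDA glutamate receptor. In the order KLF3 1 and 2, ΔDL 1 and 2, DBD 1 and 2, its called peaks held 99, 172, 33, 118, 95 and 102 tags, so it was called in every library. Intron 3 of Prph, which encodes the neuronal intermediate filament peripherin, had a DBD height of 9.84 and 94, 158, 25, 119, 53 and 58 tags. Its KLF3 height was 10.29 and its ΔDL height 10.56. The peak 32.8 kb upstream of Grap, a gene for an adaptor protein of receptor signalling, had heights of 9.98, 10.41 and 9.79 for KLF3, ΔDL and DBD. These 3 peaks were near the top for all 3 constructs.

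A peak 10.3 kb upstream of Klhdc8a had heights of 10.45, 10.88 and 9.53 for KLF3, ΔDL and DBD, and a peak 1.25 kb upstream of S100a14, a gene for a calcium-binding S100 protein, had 10.25, 11.10 and 9.46. Both were called in all 6 lists, with 50 to 58 tags in the DBD replicates. Another pair among the 10 highest was AT-rich. Intron 4 of Rapgef6, which encodes a guanine nucleotide exchange factor for Rap proteins, had heights of 9.01, 10.07 and 9.44 and a G+C content of 35.7%. A peak in an RMER1C repeat 203 kb downstream of the start of Arap2 had heights of 8.96, 10.15 and 9.53 and a G+C content of 38.9%.

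The last 3 of the 10 highest were listed for DBD alone, although KLF3 and ΔDL had tags there too. The peak 15.8 kb upstream of Gtpbp4, a gene for a GTP-binding protein of ribosome assembly, was called with 62 and 70 tags in the DBD replicates and in none of the other 4 lists, while its heights were 9.36, 9.51 and 9.79 for KLF3, ΔDL and DBD. Intron 1 of Filip1l (DBD height 9.63) and a site 284 kb upstream of Pxmp3 (9.61) were in rRNA repeats. At Filip1l the second replicates of KLF3 and ΔDL had called peaks of 98 and 45 tags, and their first replicates had none.

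The 8 DBD-high peaks in rRNA repeats, all annotated as LSU-rRNA_Hsa, were all listed for DBD alone. Their DBD heights ran from 7.88 to 9.63, and the called peaks had 23 to 63 tags in DBD replicate 1 and 17 to 43 in replicate 2. KLF3 heights ran from 7.01 to 9.51 and ΔDL heights from 6.98 to 9.37, and the median of ΔDL minus KLF3 was -0.08. No peak was called in KLF3 replicate 1 or ΔDL replicate 1 at any of the 8. Reads from copies of a repeat cannot be told apart by sequence where the copies are alike.

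Over the 41 DBD-high peaks listed for DBD alone, the median KLF3, ΔDL and DBD heights were 7.33, 8.04 and 7.81. Both KLF3 replicate lists overlapped 3 of them and 1 list overlapped 21. For ΔDL, 1 replicate list overlapped 26 of them and both overlapped none. Low counts for both lists follow in part from the absence of these peaks from the KLF3 and ΔDL merged lists. One of them, the Lmna promoter (Lmna encodes lamins A and C of the nuclear envelope), had heights of 8.49, 8.82 and 8.21 and called peaks of 11 and 21 tags in the DBD replicates.

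The 37 promoter peaks had median KLF3, ΔDL and DBD heights of 8.97, 9.24 and 7.81. The highest DBD height among them, 8.60, was at Mcart1 (Slc25a51), which encodes a mitochondrial carrier, with 41, 58, 36, 48, 40 and 42 tags in the 6 lists in the order above and 4 consensus matches in 400 bp. The promoter of 2610005L07Rik had a DBD height of 8.58 but 0 tags in the list of DBD replicate 1 and 29 in that of replicate 2. At Dst, which encodes the cytoskeletal linker dystonin, the DBD height was 8.53, with 22 and 24 tags. Slc25a23, a gene for a mitochondrial ATP carrier, had 8.51 and a ΔDL minus KLF3 of -0.60. Cfl1, which encodes the actin-severing protein cofilin, had 8.41, with a KLF3 height of 10.06 and 19 and 25 DBD tags.

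The smallest values of DBD minus KLF3 were all at peaks that were very high for KLF3. They were -3.11 at the Ppp1r10 promoter, -2.94 at a site 6.28 kb upstream of Ahnak, -2.68 at the Rangap1 promoter, -2.67 at the end of B230208H11Rik and -2.63 at the promoter of Nras, a gene for a RAS GTPase. KLF3 heights there ran from 10.15 (Nras) to 10.78 (Ppp1r10). At Ahnak, Rangap1 and Nras no peak was called in DBD replicate 1. The ΔDL height at Rangap1, 11.17, was the largest ΔDL height in the table of all peaks.

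The largest values of DBD minus KLF3 were at peaks of low KLF3 height. The difference contains the KLF3 height and the height that chose the peaks, so this follows in part from the ranking. They were 1.7 at a site 845 kb upstream of Tmprss15, 1.56 in intron 1 of Nkain2, 1.55 at 6.87 kb upstream of Urb1, 1.53 at the end of Gorab and 1.40 in intron 7 of Sh3glb1. KLF3 heights there were between 6.11 (Gorab) and 6.67 (Sh3glb1), and DBD tags in the replicate lists between 9 (Urb1 and DBD replicate 2) and 15. All but Sh3glb1 had a G+C content under 40%.

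For ΔDL minus KLF3 the largest value was 2.03, 302 kb upstream of Dynlrb2, a TA-repeat site with called peaks of 19, 16, 33, 55, 26 and 22 tags. Other large values were at a site in intron 2 of Ttc28 (nearest start site Mir701) and the Urb1 site, both 1.86, and at a site 68.4 kb upstream of Gm732 on the X chromosome, 1.83. The smallest value was -1.44 at Ifngr2, with 36 tags in KLF3 replicate 2 and no called peak in either ΔDL replicate. It was -0.98 in a LINE 5.47 kb upstream of Olfr1274-ps and -0.86 at B230208H11Rik. Exon 12 of Gak (-0.96) and a site 20.8 kb upstream of Dst (-0.85) were called in DBD replicate 2 alone among the DBD libraries, with 24 and 45 tags.

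Of 8 peaks nearest to Klf3 itself, 4 were DBD-high, and they lay in exons 3, 4, 5 and 6 of Klf3. Their KLF3 heights ran from 8.19 to 8.83, ΔDL from 9.84 to 10.11 and DBD from 7.64 to 7.98. DBD replicate 1 had called peaks of 17 to 26 tags at all 4 and DBD replicate 2 had none. ΔDL replicate 2 had 62 to 84 tags and ΔDL replicate 1 at most 6. The other 4 peaks, in the promoter, in intron 1 and downstream of the gene, had DBD heights of 5.44 to 6.17. The KLF3 and ΔDL constructs carry the Klf3 coding sequence, and DBD only the part for the zinc fingers and the putative nuclear localization signal. Where a construct carries the sequence of an exon, reads from the construct and from the gene cannot be told apart. Which of these exons the DBD construct holds was not tested.

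The 1398 peaks had 1170 distinct nearest genes, of which 1009 had a single DBD-high peak and 42 had 3 or more. Tex14, a gene for a protein of the bridges between germ cells, had the most: 6 of its 7 peaks, within 39.9 kb, were DBD-high, with DBD heights of 7.89 to 8.46 and KLF3 heights of 7.69 to 8.35. Among these 6, a pair in intron 2 overlapped each other. The genes with 5 included Zpld1 (of 11 peaks in all), Dsel (of 22), Cdh8 (of 16), Lphn3 (of 18), Tm4sf1 (of 10) and Diap2 (of 19). The DBD-high peaks of Cdh8 spread over 3260 kb and those of Tm4sf1 over 217 kb. Cdh8 encodes a cadherin and Lphn3 an adhesion receptor of the latrophilin family. The 5 peaks near Cdh8 were of the common kind, with KLF3 heights of 6.91 to 7.14, ΔDL of 8.24 to 8.82 and G+C contents of 25.7% to 35.9%.

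Gene lists were also counted, by the nearest or the overlapped gene, and set beside the 6.3% of all peaks that were DBD-high. Of 63 peaks at KLF and Sp family genes 9 (14.3%) were DBD-high, of which 4 were the Klf3 exons. The highest of the others were 187 kb from the start of Klf6 (DBD height 8.20) and 121 kb upstream of Sp8 (8.01). At AP-1 genes it was 0 of 31 and at genes of TEAD and the Hippo pathway 0 of 51, counts that allow shares of up to 9.68% and 5.88%. At genes of the CtBP complex 1 of 34 was DBD-high, 139 kb upstream of Nrip1, a nuclear receptor corepressor, with heights of 7.44, 8.55 and 7.94 for KLF3, ΔDL and DBD.

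Of 121 peaks at actomyosin, lamin and adhesion genes 2 (1.65%) were DBD-high (Lmna and intron 4 of Lpp), and of 128 at collagens, laminins and integrins 6 (4.69%). Among those, intron 1 of Lama2, a laminin chain gene, had a DBD height of 8.64 with 38 tags in DBD replicate 2 and no called peak in replicate 1. Of 116 peaks at TGF-beta pathway genes 4 (3.45%) were DBD-high, the highest in intron 2 of Ltbp1 (8.34), which encodes a protein that binds latent TGF-beta. Of 78 at EGF family and MAP kinase feedback genes it was 3 (3.85%), including a pair upstream of Egfr, the EGF receptor gene (8.42 and 7.95).

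For G1 cell cycle genes it was 3 of 52, the highest in intron 6 of Mdm2 (8.19), which encodes the ubiquitin ligase of p53. For RUNX and ETS genes it was 2 of 61, in intron 1 of Elf1 (8.55) and intron 3 of Runx1 (7.81). For adipogenesis regulators it was 2 of 32, 40.4 kb upstream of Ppargc1a (8.15) and 334 kb from the start of Gata3 (7.79). At the Mdm2, Elf1, Runx1, Ppargc1a and Gata3 sites ΔDL minus KLF3 was between 0.98 (Gata3) and 1.21 (Ppargc1a), near the median of the set.

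The most consensus matches in 400 bp, 8, were in a CTG repeat 11.8 kb upstream of Pop5 (DBD height 8), followed by 5 at the Agtpbp1 promoter (7.57). Nras, Mcart1 and a site 23.2 kb upstream of Plcg2 had 4 each. Agtpbp1 had a ΔDL minus KLF3 of -0.83 and Plcg2 of -0.24, whereas Pop5 had 0.86. No DBD replicate list overlapped 2 DBD-high peaks, 64.1 kb upstream of Epcam (DBD height 7.63) and 50.7 kb upstream of Ndufb4 (7.5). Their KLF3 heights were 8.75 and 8.70, and both were called in all 4 KLF3 and ΔDL libraries.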

How the data were processed

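ChIP-seq of V5-tagged KLF3, ΔDL and DBD in Klf3-/- MEFs was analysed from the table of all peaks and the 6 replicate and 3 merged peak lists. The expression arrays and the reads of the inputs were not used here. According to the methods and the submitters' processing notes, 50 bp reads were checked with FastQC 0.10.1, aligned to mm9 with Bowtie2 2.0.0, handled with SAMtools 0.1.18 and called as peaks with HOMER 4.1 on each replicate against its input. Scaling to a common total does not change which peaks a shallow library can call.

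The heights are log2 values that the authors computed from tags in 400 bp of both replicates together, per 100 M tags. The deposited peak scores of the lists are a signal, tags in the called peak per 100 M tags. The G+C content was deposited as a fraction by the authors. The conservation value is a mean PhastCons score as deposited. Tags behind a score were recovered from its smallest step, and 100% of scores were whole multiples of it within 0.06 units of the score. The mapped reads of each library, from the study's supplement, served as an alternative total.

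The DBD-high peaks and the gene lists were chosen with earlier results of these data known. Peaks overlapped when they shared 1 bp. Base content and sequence matches were read from mm9, in 100 or 200 bp at the centre and in flanks from 400 bp away. Replicate lists of KLF3 and ΔDL were compared by a two-sided exact permutation test, with no test over peaks. Samples were grouped by the construct in their labels, and each record covers both replicates. The peaks named are the 10 highest DBD peaks, the 5 highest in promoters, the 5 largest and 5 smallest of DBD minus KLF3 and of ΔDL minus KLF3, 3 on each side of the limit, the 5 with most consensus matches, the genes with most DBD-high peaks (at most 8), up to 3 for each gene list and those in no DBD list. Peaks in rRNA repeats and at Klf3 were named after their values were seen. One locus that the rule names is not reported here. Alternatives covered the limit, the scaling, repeats, the overlap, the window and the replicates. Of 135 alternative values 46 were chosen after seeing the data. The code was tested on simulated data. The tools were Python 3.11.15 with pysam 0.24.0, scipy 1.17.1, pandas 2.3.3 and numpy 2.4.6.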

Additional observations from a re-analysis of the deposited data

How the results depend on the processing

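Of 135 alternative values, 87 moved by less than their limit, 47 moved further and 1 changed sign. The 1 was ΔDL minus KLF3 from the tags in called peaks: with both replicates it was 1.12, leaving out each KLF3 and ΔDL replicate in turn gave 0.31 (without KLF3 replicate 2) to 2.45 (without ΔDL replicate 2), with 0.69 without ΔDL replicate 1 and 1.51 without KLF3 replicate 1, and without both KLF3 replicate 2 and ΔDL replicate 1 it was -0.10. These 2 libraries have the most and the fewest tags behind their scores. With the mapped reads as the total it was 0.80, 0.67 to 0.98 with 1 replicate left out (0.78 and 0.82 without ΔDL replicates 1 and 2), and 0.99 without those 2 libraries. Scaling the heights to the shared peaks gave 0.04 for ΔDL minus KLF3 and 0.11 for DBD minus KLF3, with 1 DBD-high peak at least 2-fold higher and 35 lower in ΔDL and 4 higher and 65 lower in DBD.

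A limit of 7 gave 4319 peaks, with 58% in both KLF3 and 91.7% in both ΔDL lists, median heights of 6.88 for KLF3 and 7.95 for ΔDL, and 8 peaks lower and 2534 higher in ΔDL, and 193 lower and 337 higher in DBD. A limit of 8 gave 301 peaks, with 92.7% and 93.4% in both lists, heights of 7.74 and 8.82, counts of 0, 186, 20 and 9 in the same order, 4.98% in promoters, 55.1% intergenic and 10.3% with the consensus. The sets differ by construction, since the limit chooses the peaks. With repeats left out 55.6% were intergenic. For peaks in both DBD lists 96.4% were in both ΔDL lists. With the upper 50% of each list by score, 38.4% were in both KLF3 and 91.3% in both ΔDL lists. With 1 replicate left out the shares were 83.5% to 95.9% for the KLF3 lists and 95.6% to 97.8% for the ΔDL lists. The consensus share was 6.15% in 200 bp and 10.2% for the 6-letter core, and the AP-1 share was 1.22% in 100 bp; a wider window or a shorter word holds more matches by construction. Apart from the limit, the window, the word and the sets that hold fewer peaks by construction, the cause was not tested.

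The replicate numbers of the lists are not stated to pair the libraries. With the number as a replicate block, ΔDL minus KLF3 at the DBD-high peaks in all 6 lists was again 1.35 (exact paired permutation p = 0.5, the smallest that 2 pairs allow), and with the mapped reads as the total it was 0.83. The heights combine both replicates, so no block could be used for them.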
